A study of Mus musculus with 80 samples.

Results

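Livers of mice injected with olive oil alone were compared at 24 h and at 7 days after the injection. All oil-injected livers of these times were taken, in both genotypes, by the treatment and time in their labels, which gave 20 of the 80 livers of the study. The study set carbon tetrachloride, a liver toxin, against its oil vehicle in wild-type mice and in mice without Adamts12, a secreted metalloproteinase of the extracellular matrix. RNA of whole liver was sequenced at 4 h, 12 h, 24 h and 7 days. The 20 livers came from C57BL/6J females that were 8 weeks old when treated, and none of them received carbon tetrachloride. The groups held 5 wild-type livers at 24 h, 5 wild-type livers at 7 days, 5 Adamts12-/- livers at 24 h and 5 Adamts12-/- livers at 7 days. Each mouse had received a single intraperitoneal injection of olive oil, so no untouched liver enters the comparison, and mice sampled at 7 days were older than those sampled at 24 h. What was removed from Adamts12 in these mice is not given in the sources used here, nor is the hour of the day at which livers were taken, or whether mice were fasted. The labels number the replicates without stating what separates them, so p-values measure the spread between these samples.

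The liver answers inflammatory signals with the acute phase response. Cytokines of the IL-6 family act on hepatocytes through STAT3, and IL-1 and TNF act through NF-kB and C/EBP factors. Hepatocytes then secrete serum amyloid A, haptoglobin, fibrinogen and complement, while albumin and transthyretin, the negative acute phase proteins, are made in smaller amounts. Liver transcripts also follow the circadian clock, feeding and glucocorticoids, and quiescent hepatocytes divide rarely.

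Of 14190 genes tested, 4325 (30.5%) differed between the times at an adjusted p under 0.05. They comprised 2212 genes (15.6%) with a higher level at 24 h and 2113 (14.9%) with a lower level at 24 h. The median difference over all tested genes was 0.001 on the log2 scale, 300 called genes were at least 2-fold higher and 415 at least 2-fold lower. In 548 genes (3.86%) the values of the 10 livers of 24 h and the 10 livers of 7 days did not overlap. Differences are log2(value + 1) at 24 h minus 7 days, adjusted for genotype, with their SE, and p-values are from limma with Benjamini-Hochberg adjustment over all tested genes. Values are normalized counts per liver, and a list of genes is described by its members called higher and lower and by its median difference. Such counts are to be read beside the 15.6% and 14.9% of all tested genes.

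The 20 libraries held from 18.65 to 50.6 M reads by the recovered depth (median 35.1 M). Principal components were taken over the 2000 tested genes that varied most. The first, with 32.7% of the variance of these genes, separated the times without overlap, and the second held 13.2%. Albumin transcript, Alb, was abundant in every liver. A few livers carried transcripts of other tissues. Wild-type replicate 5 of 24 h held 6129 normalized counts of Mylpf, a light chain of skeletal muscle myosin, against 16.6 to 36.9 in the other 4 of its group. Of 9 listed skeletal muscle markers only Mylpf was measured, so muscle transcripts below are those of this 1 gene. Knockout replicate 1 of 7 days held 806 counts of Mylpf and 1935 of Ighm, the heavy chain of IgM. Knockout replicate 2 of 7 days held 1430 counts of Cela2a, a pancreatic elastase, where the other livers of 7 days held at most 33.9. Without these 3 livers, 4137 genes were called, 2068 higher and 2069 lower. The name of each library ends in a number whose meaning the labels do not give. It was below 7000 in 4 of 5 wild-type livers of 24 h, in 2 of 5 wild-type livers of 7 days and in none of the knockout livers, so the wild-type difference is partly mixed with it. Without those 6 libraries 2945 genes were called, 1540 higher and 1405 lower. That omission leaves 1 wild-type liver of 24 h, replicate 5, which carried muscle transcripts and is then assumed to vary like the other groups.

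Serum amyloid and other acute phase transcripts were higher at 24 h. Of 30 tested members of this list 24 were higher and 2 lower, with a median difference of 1.90, beside 15.6% and 14.9% of all tested genes. For 20 of the 30 the values of the times did not overlap, beside 3.86% of all tested genes. The count was the same, 24 higher and 2 lower, without the 3 livers that carried transcripts of other tissues and without the libraries numbered below 7000. Saa1 and Saa2 encode the serum amyloid A proteins that circulate with high-density lipoprotein, and Lcn2 encodes lipocalin 2, which binds bacterial siderophores.

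The genes Saa1 and Saa2 lie near each other on chromosome 7 in opposite orientation. Their promoters, with that of Lcn2, are shown because these genes had the largest differences in the list and because their proximal sequences share a motif. Each run below is the 250 bases before the gene's start, written 5′ to 3′ on the strand of the gene, from RefSeq GRCm38.p6. Capitals mark TTGCNNAA, a pattern bound by C/EBP factors, which was searched on both strands.
Saa1, chr7:46742981-46743230, minus strand: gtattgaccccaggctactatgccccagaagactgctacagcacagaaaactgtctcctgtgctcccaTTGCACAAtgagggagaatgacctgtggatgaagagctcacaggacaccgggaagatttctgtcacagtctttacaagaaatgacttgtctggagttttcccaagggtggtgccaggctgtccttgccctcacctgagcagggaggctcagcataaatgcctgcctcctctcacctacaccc
Saa2, chr7:46751583-46751832, plus strand: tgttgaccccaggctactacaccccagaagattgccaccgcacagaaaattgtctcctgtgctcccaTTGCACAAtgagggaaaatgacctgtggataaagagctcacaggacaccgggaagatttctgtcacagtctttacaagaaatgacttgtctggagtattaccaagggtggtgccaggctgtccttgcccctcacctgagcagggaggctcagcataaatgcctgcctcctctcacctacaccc
Lcn2, chr2:32387740-32387989, minus strand: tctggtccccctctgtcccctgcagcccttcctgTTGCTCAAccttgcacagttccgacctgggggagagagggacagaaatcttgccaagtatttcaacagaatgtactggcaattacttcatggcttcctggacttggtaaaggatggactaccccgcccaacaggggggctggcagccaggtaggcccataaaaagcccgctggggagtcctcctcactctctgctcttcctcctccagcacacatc

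The Saa1 and Saa2 runs were equal at 94.8% of their aligned positions. The transcripts are close copies as well, so reads of one may have been counted for the other. Of the 24 members called higher, 17 had a promoter in the table, with 18 promoters in all. The C/EBP pattern was in 10 of these 18 promoters (55.6%), beside 8.3% of the 13720 promoters of tested genes. Among the genes with a match were Saa1, Saa2, Saa3, Saa4, Orm2 and Orm3. These belong to families of related genes, so their promoters may not count as independent. The same pattern was in 5 of 25 promoters of the phase II enzymes that were lower at 24 h (20%). The NF-kB pattern was in 2 of the 18 (11.1%, beside 1.5%). The STAT pattern TTCNNNGAA was in 3 of 18 (16.7%, beside 6.1%). TATAAA was in 5 of 18 (27.8%, beside 7.1%). The patterns were chosen after the values were seen, and a match is a description of the letters only.

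Saa1 had 532464, 416093, 534968, 475028 and 519912 normalized counts in the wild-type livers of 24 h and 825998, 564024, 580155, 427413 and 419057 in the knockout livers of 24 h. At 7 days Saa1 had 2896, 1293, 928, 4626 and 2312 in wild type and 3575, 5147, 15263, 2501 and 1240 in knockout. Every liver of 24 h was far above every liver of 7 days, and knockout replicate 3 was the highest of the 7-day livers. The difference was 7.52 ± 0.34 (adjusted p = 2.44e-12), and the mean was 133 times as high at 24 h. Saa2 ranged from 358298 to 754177 at 24 h, with a median of 457057, and from 498 to 6592 at 7 days, with a median of 1400. Its difference was 8.43 ± 0.31 (adjusted p = 5.32e-14), the largest of the called genes that met the naming rule. Lcn2 ranged from 57449 to 144420 at 24 h (median 84661) and from 281 to 5283 at 7 days (median 1484), again without overlap. It differed by 6.00 ± 0.42 (adjusted p = 1.45e-09).

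Counted together, Saa1 and Saa2 took 2.05% to 3.71% of all normalized counts of a liver at 24 h and 0.00448% to 0.0672% at 7 days. The 26 acute phase members other than Alb, Ttr, Rbp4 and Ahsg took 10.1% to 14.2% at 24 h and 1.67% to 3.08% at 7 days. Alb took 5.17% to 6.82% at 24 h and 9.13% to 13.4% at 7 days. These shares add up within a library, so a larger share of one transcript leaves less for the others.

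**Figure D1:**
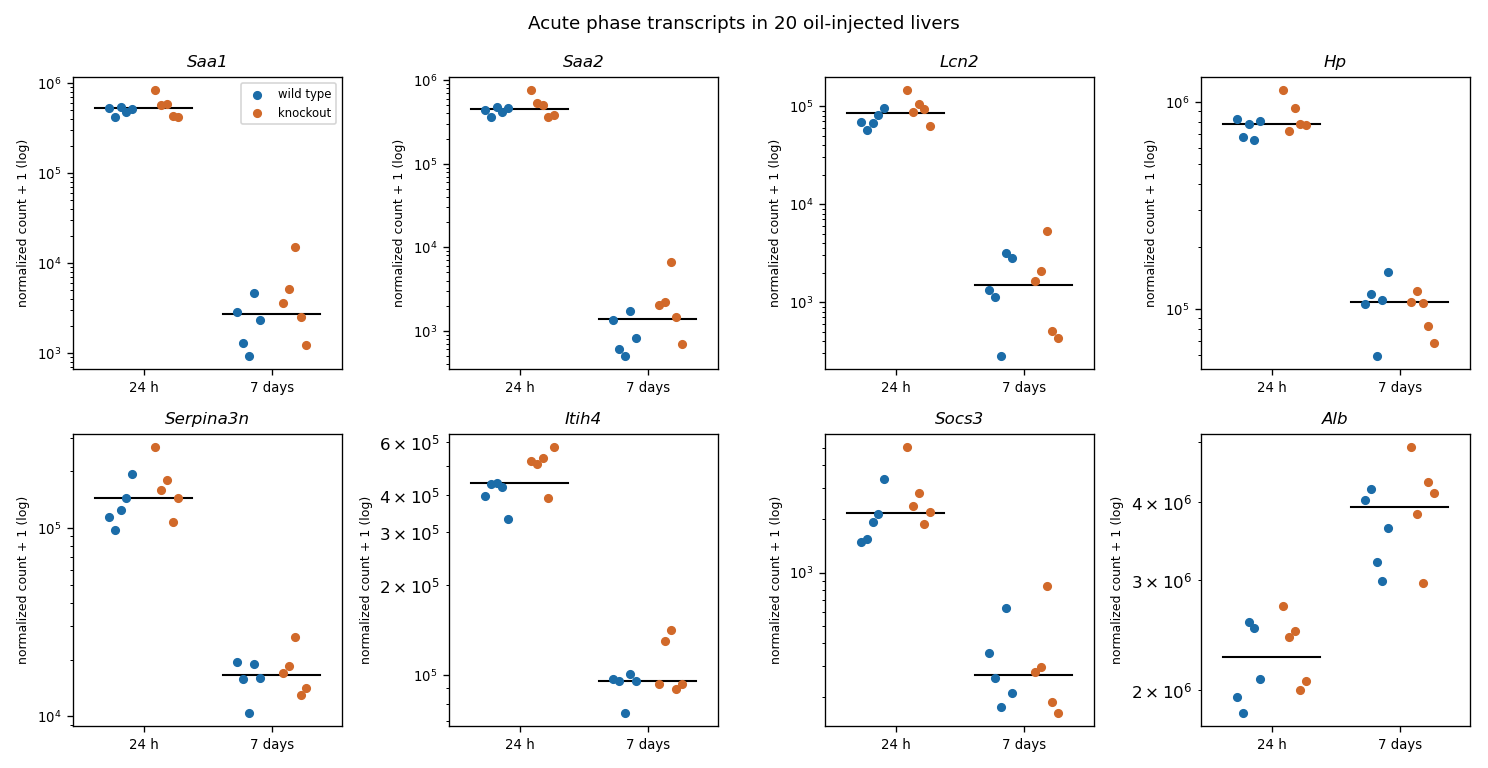
Normalized counts plus 1 (log axis) of 7 acute phase or signalling transcripts and of Alb in the 10 livers of 24 h and the 10 livers of 7 days, 1 point per liver, wild type in blue and knockout in orange, with the black line at the median of the 10. For Saa1 all livers of 24 h lie at 416093 or more and all livers of 7 days at 15263 or less, and Alb shows the opposite order.

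Haptoglobin, Hp, which binds free haemoglobin, ranged from 656866 to 1136406 at 24 h (median 779955) and from 59154 to 150536 at 7 days (median 107632), a difference of 3.00 ± 0.15 (adjusted p = 1.15e-11). The protease inhibitor Serpina3n ranged from 97923 to 266848 at 24 h and from 10399 to 26304 at 7 days (3.16 ± 0.17, adjusted p = 1.66e-11). The values of the times were apart for both genes. The orosomucoids, which are lipocalins of plasma, differed by 4.47 ± 0.34 for Orm2, 2.81 ± 0.50 for Orm3 and 2.62 ± 0.14 for Orm1. These 3 genes are close copies, so counts may be split between them. A2m, alpha-2-macroglobulin, was at 14.3 to 520 normalized counts at 24 h and at 0 to 13.2 at 7 days (4.05 ± 0.63, adjusted p = 4.83e-05).

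Serum amyloid P, Apcs, differed by 2.80 ± 0.18, the fibrinogen-like hepatokine Fgl1 by 2.19 ± 0.19, and the inter-alpha-trypsin inhibitor chains Itih4 and Itih3 by 2.18 ± 0.11 and 1.92 ± 0.12. Hemopexin, Hpx, the metalloreductase Steap4 and the endotoxin-binding Lbp differed by 1.95 ± 0.15, 1.88 ± 0.15 and 1.60 ± 0.13. C-reactive protein, Crp, which is a weak acute phase protein in the mouse, differed by 0.80 ± 0.10 (adjusted p = 2.94e-06). Saa3, the form also made by macrophages, overlapped between the times (591 to 3075 at 24 h and 96.8 to 2504 at 7 days) and differed by 2.27 ± 0.48 (adjusted p = 0.00099). Both lower members were negative acute phase proteins. Alb ranged from 1838718 to 2732217 at 24 h and from 2972177 to 4894537 at 7 days, without overlap (-0.75 ± 0.17, adjusted p = 0.00162). Transthyretin, Ttr, differed by -0.65 ± 0.11. Ahsg (0.21 ± 0.10, adjusted p = 0.117) and Rbp4 (0.07 ± 0.08, adjusted p = 0.567), also counted among negative acute phase proteins, did not pass the test.

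Signalling components that act upstream of acute phase genes were also mostly higher. Of 24 tested members of the STAT3, NF-kB and IL-1 list 14 were higher and 1 lower, with a median of 0.74. Socs3, the feedback inhibitor of STAT3, ranged from 1493 to 5042 at 24 h (median 2161) and from 162 to 843 at 7 days (median 265), a difference of 2.99 ± 0.28 (adjusted p = 8.98e-08). Il1r1, the signalling IL-1 receptor, ranged from 2539 to 7632 at 24 h and from 481 to 1313 at 7 days (2.37 ± 0.20, adjusted p = 2.99e-08). Neither gene overlapped between the times. Stat3 itself differed by 0.91 ± 0.12, the IL-6 receptor chain Il6ra by 1.08 ± 0.14, and the oncostatin M receptor Osmr by 1.22 ± 0.21. Cebpb and Cebpd, transcription factors of the C/EBP family, differed by 1.26 ± 0.21 and 1.16 ± 0.22, and the NF-kB cofactor Bcl3 by 1.38 ± 0.19. The LIF receptor, Lifr, was lower (-0.96 ± 0.15, adjusted p = 6.83e-05). The NF-kB inhibitors Nfkbia (0.00 ± 0.09, adjusted p = 0.989) and Tnfaip3 (-0.03 ± 0.15, adjusted p = 0.9) were not called.

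Complement and coagulation transcripts were higher in 22 of 32 tested members and lower in 1, with a median of 0.31. The fibrinogen chains Fga, Fgg and Fgb differed by 1.38 ± 0.12, 1.32 ± 0.12 and 1.27 ± 0.12, and together took 3.32% to 5.09% of counts at 24 h and 1.33% to 2.33% at 7 days. Complement C3 ranged from 851495 to 1280353 at 24 h and from 366734 to 652115 at 7 days (1.11 ± 0.12, adjusted p = 7.3e-07). The times did not overlap for C3 or for the fibrinogen chains. Mbl2, a mannose-binding lectin, was the lower member (-0.63 ± 0.09, adjusted p = 3.28e-05).

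Iron genes were mixed, with 6 of 22 higher and 6 lower. Hamp encodes hepcidin, which blocks iron export, and it ranged from 8739 to 30997 at 24 h and from 4147 to 21861 at 7 days, with overlap (0.99 ± 0.27, adjusted p = 0.00765). Its close copy Hamp2 went the other way, with 1671 to 8001 at 24 h and 2254 to 34664 at 7 days (-2.18 ± 0.35, adjusted p = 6.56e-05). Slc39a14, a carrier of zinc and iron, differed by 1.56 ± 0.13 without overlap.

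Of 19 tested chemokines and cytokines 3 were higher and 2 lower, shares near the 15.6% and 14.9% of all tested genes. Cxcl1, which attracts neutrophils, ranged from 1110 to 7714 at 24 h (median 1920) and from 50.7 to 1297 at 7 days (median 225), a difference of 3.03 ± 0.43 (adjusted p = 1.88e-05). Ccl7 (2.08 ± 0.50) and Cxcl12 (0.49) were the other higher members. Cxcl9 and Cxcl10, chemokines induced by interferon gamma, were lower (-1.73 ± 0.25 and -1.26 ± 0.17). Ccl2 (-0.11 ± 0.43) and Tnf (-0.38) were not called. Without knockout replicate 2 of 7 days, 5 members were higher.

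Interferon-stimulated genes were lower in 12 of 25 tested members and higher in 2, with a median of -0.53. The median was -0.3 without the libraries numbered below 7000. Within wild type 13 were lower, beside 5.9% of all tested genes, with a median of -0.76. Within knockout 6 were lower, beside 11.5%, with a median of -0.29, and no member was called for the interaction. Rsad2, the antiviral enzyme viperin, ranged from 106 to 319 at 24 h (median 161) and from 454 to 1108 at 7 days (median 672), without overlap (-2.05 ± 0.20, adjusted p = 2.48e-07). Ifit3, another antiviral protein, ranged from 180 to 696 and from 686 to 1045 (-1.49 ± 0.17), with a narrow overlap. Isg15 differed by -0.58 ± 0.19 (adjusted p = 0.0216), and Zbp1 and Stat2 were the 2 higher members (0.72 and 0.51). Of 19 immediate early genes 3 were higher and 5 lower, and without the libraries numbered below 7000 5 were higher and 3 lower. Within wild type 0 of them were lower, beside 5.9% of all tested genes, and within knockout 6, beside 11.5%. None of the immediate early genes was called for the interaction. Over both genotypes Egr1 was lower (-2.05 ± 0.47) and Fos was not called (-0.51 ± 0.33, adjusted p = 0.259).

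**Figure D2:**
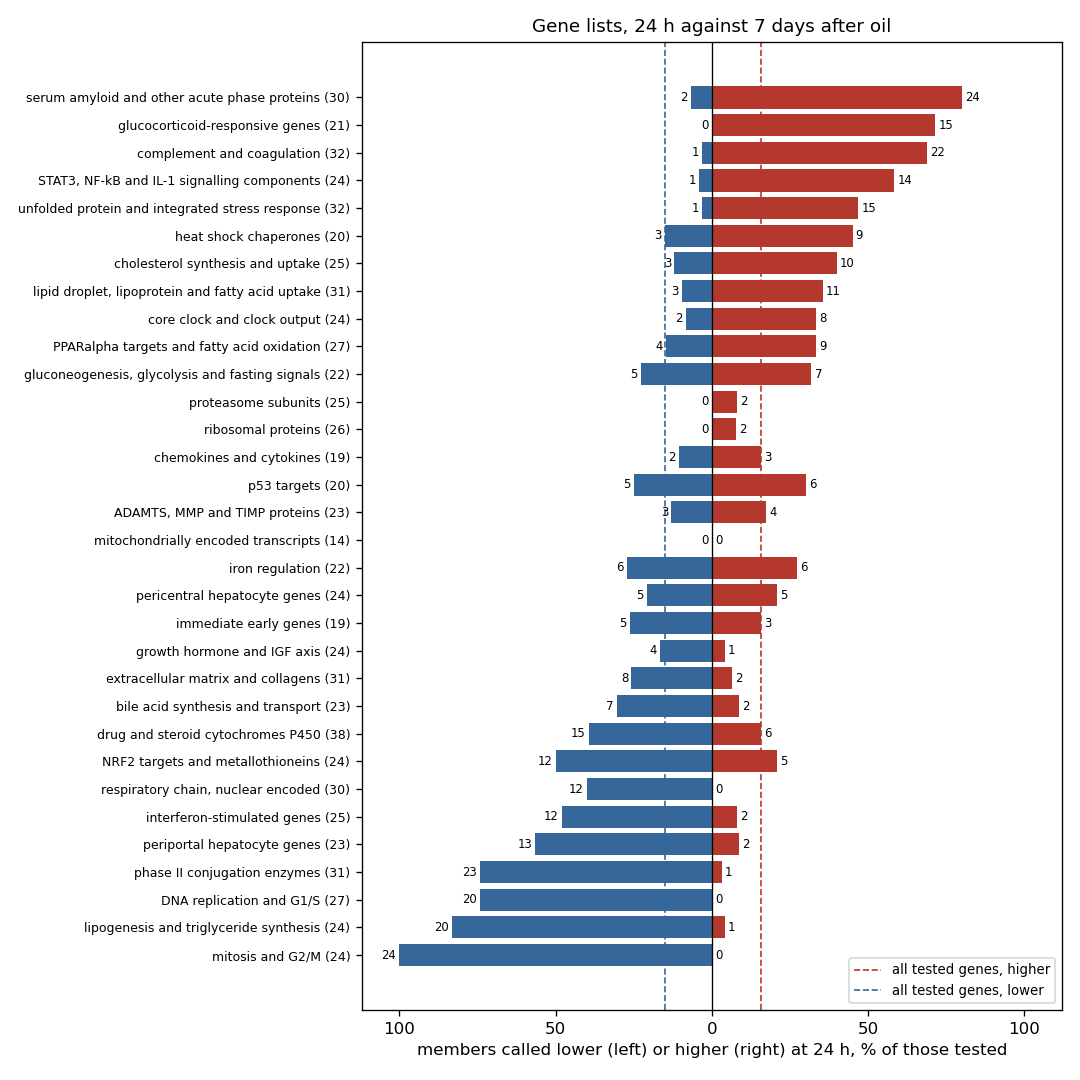
Share of the tested members of 32 gene lists called higher (red, right) or lower (blue, left) at 24 h, with the number of members beside each bar, the number tested in parentheses and dashed lines at the shares over all tested genes, 15.6% higher and 14.9% lower. Acute phase proteins stand at the top with 24 of 30 higher, and mitosis genes at the bottom with 24 of 24 lower.

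Glucocorticoid-responsive genes were higher in 15 of 21 tested members and lower in none, with a median of 1.01. Some members sit in other lists too, among them Lcn2, Per1, Mt1 and Mt2. Fkbp5, a chaperone of the glucocorticoid receptor, ranged from 1695 to 6311 at 24 h (median 3698) and from 717 to 1722 at 7 days (median 1202), with overlap only at the border (1.59 ± 0.22, adjusted p = 1.27e-05). Zbtb16 differed by 1.47 ± 0.27, Gadd45g by 2.10 ± 0.37 and Tsc22d3 by 0.84 ± 0.14. The metallothioneins Mt2 and Mt1, which bind zinc, differed by 3.51 ± 0.57 and 2.93 ± 0.43. Mt2 spread widely at 7 days, from 238 to 28881, against 14231 to 107858 at 24 h. The classical target Tat, tyrosine aminotransferase, was not called (0.16).

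Core clock and clock output genes were called in 10 of 24 cases, 8 higher and 2 lower, with a median of 0.07. Per1, a period gene that glucocorticoids also induce, had 1013, 736, 846, 1018 and 732 normalized counts in wild type and 418, 625, 1133, 785 and 834 in knockout at 24 h. At 7 days Per1 had 56.7, 152, 33.9, 174 and 61.5 in wild type and 79.0, 188, 284, 69.6 and 165 in knockout. The times did not overlap, and the difference was 2.90 ± 0.30 (adjusted p = 4.36e-07). The deubiquitinase Usp2 differed by 1.89 ± 0.20 and the repressor Ciart by 1.87 ± 0.36. Noct, Per2, Nfil3, Hlf and Tef were also higher (1.30, 0.94, 0.85, 0.73 and 0.61). Npas2, a partner of the BMAL1 protein, was lower (-1.79 ± 0.35, adjusted p = 0.000564), as was Wee1 (-0.50 ± 0.17). Arntl, which encodes BMAL1, ranged from 451 to 910 at 24 h and from 464 to 1281 at 7 days and was not called (-0.37 ± 0.18, adjusted p = 0.131). Nr1d1 (-0.72 ± 0.30, adjusted p = 0.067) and Dbp (-0.63 ± 0.71, adjusted p = 0.538) were not called either. Dbp, which cycles steeply, ran from 22.0 to 588 among the livers of 24 h and from 32.8 to 1298 among those of 7 days. The hour of sampling is not in the labels, and its part in these values was not tested. The E-box letters CACGTG were in 4 of 9 promoters of the higher clock genes (44.4%, beside 8.0% of all), those of Ciart, Per1 and Tef.

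Lipogenic transcripts were lower at 24 h. Of 24 tested members of the lipogenesis and triglyceride synthesis list 20 were lower and 1 higher, with a median of -0.81. Scd1, the stearoyl-CoA desaturase, had 16968, 9267, 9047, 31086 and 9877 normalized counts in wild type and 24398, 16610, 6398, 18288 and 21545 in knockout at 24 h. At 7 days Scd1 had 112199, 337678, 425685, 190574 and 250962 in wild type and 226767, 281100, 209750, 345400 and 403465 in knockout. Every liver of 24 h was below every liver of 7 days, and the difference was -4.16 ± 0.27 (adjusted p = 5.57e-10). Pnpla3, a lipase-like lipid droplet protein, ranged from 0.8 to 8.9 at 24 h and from 13.3 to 172 at 7 days (-3.13 ± 0.47, adjusted p = 3.33e-05). Fatty acid synthase, Fasn, ranged from 6650 to 14241 and from 16781 to 46513 (-1.25 ± 0.19). The values of these genes did not overlap either. Thrsp, Acly and the lipogenic regulator Srebf1 differed by -1.84 ± 0.32, -1.16 ± 0.17 and -0.80 ± 0.12. Lpin1, which makes diacylglycerol and also coactivates fatty acid oxidation, was the higher member (0.77 ± 0.20, adjusted p = 0.00559).

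Genes of fatty acid oxidation and PPARalpha were mixed, 9 of 27 higher and 4 lower. The hepatokine Fgf21 ranged from 8.2 to 128 at 24 h and from 0 to 38.6 at 7 days (2.36 ± 0.56, adjusted p = 0.00271). Cpt1a, which admits fatty acids to mitochondria, differed by 0.56 ± 0.14. Ehhadh, Acot1 and Fabp1, targets of the same receptor, were lower (-1.21 ± 0.13, -1.32 ± 0.34 and -0.86 ± 0.15). Of 31 lipid droplet and lipoprotein genes 11 were higher and 3 lower, and 7 were higher and 4 lower without the 3 livers that carried transcripts of other tissues. The droplet coat protein Plin4 ranged from 283 to 1015 at 24 h and from 28.2 to 64.8 at 7 days, without overlap (3.16 ± 0.20, adjusted p = 3.75e-10). Its highest value was that of wild-type replicate 5, which carried muscle transcripts, and the knockout difference alone was 3.19. Angptl4, which inhibits lipoprotein lipase, and the lipase inhibitor G0s2 differed by 1.24 ± 0.18 and 1.11 ± 0.23.

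Gluconeogenic and glycolytic genes were called in 12 of 22 cases, 7 higher and 5 lower. Pck1, the enzyme at the entry of gluconeogenesis, differed by 1.01 ± 0.20, and the carbohydrate-responsive factor Mlxipl and its target Pklr by -0.83 ± 0.20 and -0.73 ± 0.17. The glycogen phosphorylase Pygl ranged from 6397 to 9682 at 24 h and from 12394 to 19447 at 7 days (-0.89 ± 0.08, adjusted p = 1.04e-07). G6pc, the last step of glucose release, was not called (-0.41). Cholesterol synthesis was higher in 10 of 25 tested members and lower in 3. Cyp51 and Sqle, enzymes of the later and middle steps, differed by 0.85 ± 0.19 and 0.79 ± 0.18. Without the libraries numbered below 7000, 5 members were higher and 3 lower. Of 23 bile acid genes 2 were higher and 7 lower. The bile salt export pump Abcb11 differed by -0.71 ± 0.11 without overlap, and the bile acid receptor Nr1h4 by 0.72 ± 0.11. Cyp7a1, whose enzyme sets the pace of the main route from cholesterol to bile acids, spread from 290 to 14498 at 24 h and from 793 to 3446 at 7 days and was not called (0.87 ± 0.52, adjusted p = 0.223).

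**Figure D3:**
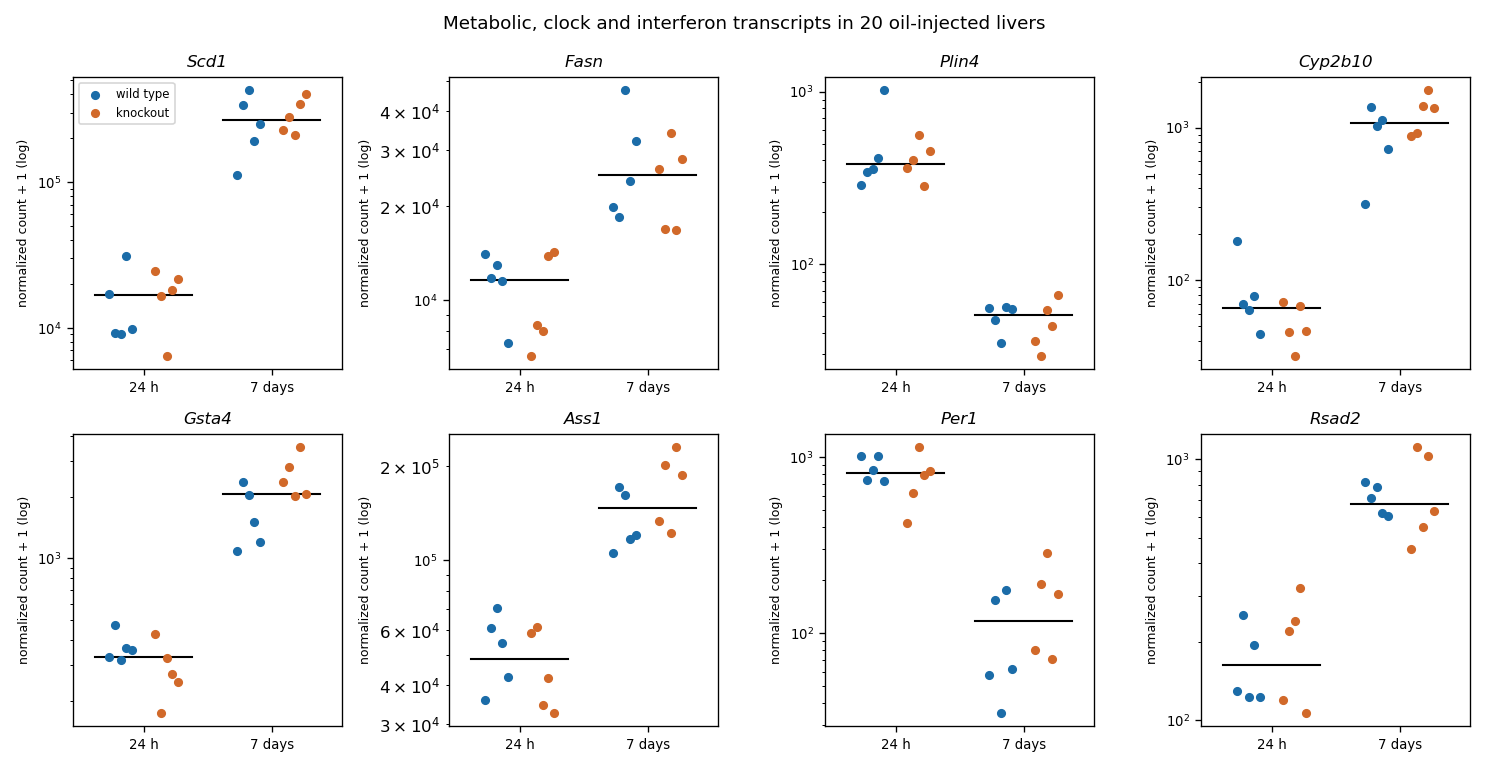
Normalized counts plus 1 (log axis) of Scd1, Fasn, Plin4, Cyp2b10, Gsta4, Ass1, Per1 and Rsad2 in the 10 livers of 24 h and the 10 livers of 7 days, 1 point per liver, wild type in blue and knockout in orange, with the black line at the median of the 10. Plin4 and Per1 are higher at 24 h and the other 6 lower, and for none of the 8 do the times overlap.

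Of 38 cytochrome P450 genes with the reductase Por 15 were lower and 6 higher, with a median of -0.36. Cyp2b10, a target of the receptor CAR, ranged from 30.8 to 178 at 24 h (median 65.1) and from 313 to 1751 at 7 days (median 1072), a difference of -3.99 ± 0.29 (adjusted p = 2.63e-09). Cyp2c55 ranged from 10.6 to 38.8 and from 92.9 to 510 (-3.38 ± 0.27), and Cyp2a4 from 185 to 2832 and from 5159 to 15258 (-3.18 ± 0.35). None of these genes overlapped between the times. Cyp2f2, a periportal enzyme, differed by -1.56 ± 0.08 (adjusted p = 1.15e-11), Cyp3a11 by -1.04 ± 0.13 and Cyp1a2 by -1.25 ± 0.19. Cyp2e1, the pericentral enzyme that activates carbon tetrachloride, was higher, with 229467 to 352425 at 24 h and 105288 to 254545 at 7 days (0.87 ± 0.16, adjusted p = 0.000254). With quantile normalization Cyp2e1 differed by 0.26 and was not called (adjusted p = 0.263). The members Cyp3a13 (1.16 ± 0.11) and Cyp4a14 (0.91) were higher as well. Many of these genes are close copies within their families, so single values are uncertain where reads could not be assigned.

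Conjugation enzymes of phase II were lower in 23 of 31 tested members and higher in 1, with a median of -0.60. The glutathione transferase Gsta4 ranged from 173 to 473 at 24 h (median 326) and from 1091 to 3499 at 7 days (median 2058), without overlap (-2.64 ± 0.20, adjusted p = 4.46e-09). Gsta2 ranged from 20.7 to 126 and from 234 to 3301 (-4.14 ± 0.41), and Gstm3 differed by -2.45 ± 0.20. Gsta1 was at 0 in all 5 wild-type livers of 24 h and at 1.1, 1.6, 0, 0 and 0 in the knockout livers, where 3 reads of a library correspond to 2.12 to 5.64 normalized counts. At 7 days it had 2.4, 90.1, 17.5, 14.7 and 2.8 in wild type and 81.6, 120, 23.3, 208 and 57.5 in knockout. Sult2a7, a sulfotransferase, was the higher member (1.97 ± 0.41, adjusted p = 0.00091). The antioxidant response letters TGACNNNGC were in 1 of 25 promoters of the lower phase II genes (4.0%, beside 11.6% of all).

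Of 24 NRF2 targets and metallothioneins 12 were lower and 5 higher. The higher members were Mt1, Mt2, Slc39a14, Gclm and Txnrd1, of which the first 3 belong to metal handling. Gclc, the catalytic subunit of glutathione synthesis, ranged from 2549 to 5934 at 24 h and from 7442 to 11746 at 7 days (-1.15 ± 0.10, adjusted p = 6.54e-08). Osgin1 (-1.08 ± 0.11) and Nqo1 (-0.48 ± 0.14) were lower, and the NRF2 target Srxn1 was not called (-0.12).

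Of 23 periportal genes 13 were lower and 2 higher, with a median of -0.40, and 8 did not overlap between the times, beside 3.86% of all tested genes. The urea cycle enzyme Ass1 ranged from 32565 to 70233 at 24 h and from 105537 to 229352 at 7 days (-1.66 ± 0.17, adjusted p = 3.12e-07). Gls2, the liver glutaminase, differed by -1.51 ± 0.18, and Cps1, which makes carbamoyl phosphate, by -0.77 ± 0.14. Of 24 pericentral genes 5 were higher and 5 lower, and Glul, glutamine synthetase, was not called (0.45 ± 0.20, adjusted p = 0.0899). The difference between these lists was not tested. Of 24 genes of the growth hormone and IGF axis 4 were lower, Stat5b, Igfbp3, Igfbp2 and Lifr, and Egfr was higher (0.70 ± 0.15). The lower share was near the 14.9% of all tested genes. Igf1 was not called (-0.26 ± 0.13, adjusted p = 0.141).

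Stress chaperones were higher in part. Of 32 genes of the unfolded protein and integrated stress responses 15 were higher and 1 lower, with a median of 0.34. Derl3, a component of endoplasmic reticulum degradation, ranged from 480 to 1047 at 24 h and from 27.3 to 791 at 7 days (2.55 ± 0.43, adjusted p = 0.000112). Chac1, which degrades glutathione, differed by 1.63 ± 0.26 and Herpud1 by 0.92 ± 0.16, while the chaperone Hspa5 was not called (0.20 ± 0.20, adjusted p = 0.48). Of 20 heat shock genes 9 were higher and 3 lower. Hspa1b, an inducible HSP70, ranged from 137 to 445 at 24 h and from 39.5 to 115 at 7 days, without overlap (2.08 ± 0.21, adjusted p = 3.26e-07). Its near-identical copy Hspa1a was low in all livers, 7.6 to 50.6 and 0.7 to 9.2, and counts may be split between the copies.

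Mitotic transcripts were lower at 24 h than at 7 days. All 24 tested members of the mitosis and G2/M list were lower and none higher, with a median of -2.28, beside 14.9% of all tested genes. The count was 24 whichever single library was left out, 23 without the 3 livers that carried transcripts of other tissues and 19 without the 6 libraries numbered below 7000. Cdc20 activates the anaphase-promoting complex. Its promoter is shown because it holds both motifs that mark genes of late cell cycle, TTTGAA, which is read as the CHR element, and CCAAT, the site of NF-Y. The run is the 250 bases before the gene's start from RefSeq GRCm38.p6, written 5′ to 3′ on the strand of the gene, with both motifs in capitals.
Cdc20, chr4:118437344-118437593, minus strand: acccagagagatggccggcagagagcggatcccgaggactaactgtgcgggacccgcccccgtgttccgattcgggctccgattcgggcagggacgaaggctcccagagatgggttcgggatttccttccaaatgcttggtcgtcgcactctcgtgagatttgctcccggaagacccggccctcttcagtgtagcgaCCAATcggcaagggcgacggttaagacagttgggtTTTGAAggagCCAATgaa

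Of the 24 mitotic genes 19 had a promoter in the table, with 20 promoters in all. TTTGAA on either strand was in 8 of these 20 (40%), beside 11.3% of the 13720 promoters of tested genes, and CCAAT in 17 of 20 (85%), beside 35.1%.

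Cdc20 had 12.2, 12.6, 5.4, 2.3 and 24.5 normalized counts in wild type and 7.7, 14.3, 19.2, 13.9 and 4.5 in knockout at 24 h. At 7 days it had 460, 370, 24.0, 403 and 189 in wild type and 550, 105, 44.9, 307 and 34.2 in knockout. The livers of 7 days spread far more than those of 24 h, and only wild-type replicate 3 of 7 days lay within the values of 24 h. The difference was -3.87 ± 0.56 (adjusted p = 2.34e-05). Cyclin B1, Ccnb1, ranged from 2.5 to 10.8 at 24 h and from 14.2 to 235 at 7 days (-3.32 ± 0.46), and the kinase Plk1 from 0 to 14.4 and from 15.3 to 166 (-3.35 ± 0.53). Neither overlapped between the times, but in the whole list this held for 3 of 24 members, beside 3.86% of all tested genes. The proliferation marker Mki67 ranged from 41.4 to 122 at 24 h and from 83.7 to 795 at 7 days (-2.06 ± 0.31, adjusted p = 3.05e-05). Hmmr, a spindle protein, differed by -3.74 ± 0.55. In bulk tissue fewer cells of a type and less RNA per cell cannot be told apart, which holds for these and for all lists.

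**Figure D4:**
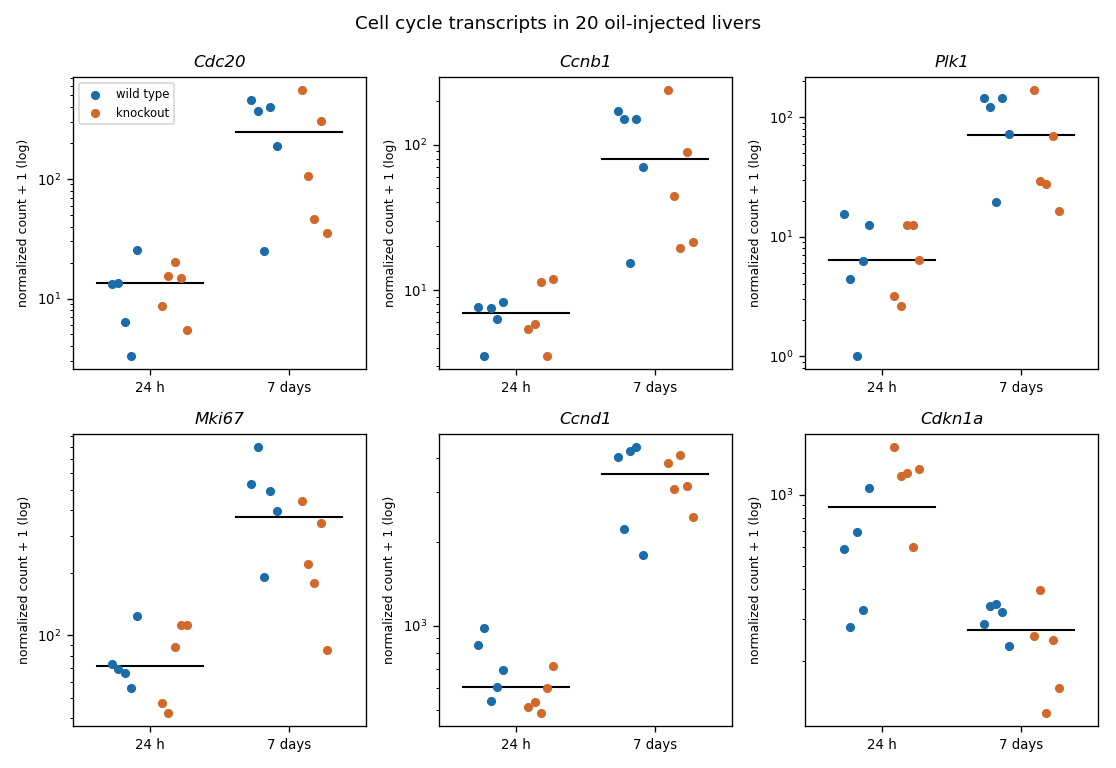
Normalized counts plus 1 (log axis) of Cdc20, Ccnb1, Plk1, Mki67, Ccnd1 and Cdkn1a in the 10 livers of 24 h and the 10 livers of 7 days, 1 point per liver, wild type in blue and knockout in orange, with the black line at the median of the 10. The mitotic genes spread widely among the livers of 7 days, for example Cdc20 from 24.0 to 550, and Cdkn1a is the gene with the higher median at 24 h.

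Genes of DNA replication and G1/S were lower in 20 of 27 tested members and higher in none, with a median of -0.64. This count rested in part on single libraries, with 13 lower without wild-type replicate 2 of 7 days, and 9 lower without the libraries numbered below 7000. Cyclin D1, Ccnd1, which starts the cycle in hepatocytes, had 855, 979, 537, 604 and 694 in wild type and 509, 532, 486, 595 and 718 in knockout at 24 h. At 7 days Ccnd1 had 4003, 2223, 4227, 4346 and 1795 in wild type and 3809, 3083, 4080, 3154 and 2458 in knockout. No liver of 24 h reached the lowest liver of 7 days, and the difference was -2.33 ± 0.16 (adjusted p = 1.67e-09). The replicative helicase subunit Mcm5 differed by -1.05 ± 0.33 and the clamp Pcna by -0.34 ± 0.09. Ccne1 and Ccne2 were not called (0.48 and 0.32).

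The cell cycle inhibitor Cdkn1a, which encodes p21, was higher, with 277 to 1577 at 24 h (median 882) and 120 to 397 at 7 days (median 269), with overlap (1.60 ± 0.29, adjusted p = 0.000277). Of 20 p53 targets 6 were higher and 5 lower. Plk3 was higher (1.38 ± 0.29), Gdf15 and Eda2r were lower (-1.09 ± 0.22 and -1.48 ± 0.38), and Mdm2, the p53 ligase, was not called (0.17 ± 0.08, adjusted p = 0.0978).

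Markers of immune cells moved in different directions. Neutrophil markers were higher in 5 of 10 tested members and lower in none, with a median of 1.44, beside 15.6% of all genes. S100a8, which neutrophils carry in bulk, ranged from 60.5 to 934 at 24 h (median 203) and from 9.5 to 162 at 7 days (median 55.1), with overlap (1.95 ± 0.48, adjusted p = 0.00358). Mmp8, the neutrophil collagenase, ranged from 15.5 to 57.1 and from 1.7 to 13.2 (2.25 ± 0.34), and Elane, neutrophil elastase, differed by 1.83 ± 0.34. Summed neutrophil markers were 439 to 3305 in wild type and 312 to 1131 in knockout at 24 h, and 227 to 529 and 127 to 847 at 7 days. The highest sum was again in wild-type replicate 5 of 24 h. Without the 3 livers that carried transcripts of other tissues 5 neutrophil markers were higher, without knockout replicate 2 of 24 h there were 8, and without the libraries numbered below 7000 there were 3.

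Dendritic cell and MHC class II markers were lower in 5 of 11 tested members and higher in none. H2-Aa, an MHC class II chain, ranged from 279 to 929 at 24 h and from 632 to 3023 at 7 days, with overlap (-1.22 ± 0.28, adjusted p = 0.00225), and its regulator Ciita differed by -1.01 ± 0.33. Within wild type H2-Aa differed by -0.50 (adjusted p = 0.403) and within knockout by -1.93 (adjusted p = 0.000324), and the interaction was not called (adjusted p = 0.309). B and plasma cell markers were lower in 4 of 10, among them Ighm (-1.15 ± 0.33) and the antigen receptor chain Cd79a (-1.13 ± 0.31). Without the 3 livers named above, 4 of each list were lower, and without wild-type replicate 3 of 24 h or knockout replicate 5 of 7 days there were 7 B and plasma cell markers. Of 14 T and NK cell markers 1 was lower, Cd8a (-0.72 ± 0.25, adjusted p = 0.0304). Cd8a was not called without the 3 livers (adjusted p = 0.0783) or with all 80 libraries in the fit (adjusted p = 0.107), and the list count was 0 to 1 when 1 library was left out. Of 15 monocyte and macrophage markers 1 was lower, Lyz2 (adjusted p = 0.0407), with 874 to 6547 at 24 h and 1596 to 18681 at 7 days. Lyz2 had its highest value, 18681, in knockout replicate 2 of 7 days, and 0 of the 15 were lower and 3 higher without the 3 livers. Of 14 Kupffer cell markers 1 was higher, the haemoglobin scavenger receptor Cd163 (0.88 ± 0.30, adjusted p = 0.032). Cd163 was not called with all 80 libraries in the fit (adjusted p = 0.0709) or without the libraries numbered below 7000 (adjusted p = 0.138), and the list count was 0 to 1 when 1 library was left out. Clec4f, a lectin of Kupffer cells, was not called (-0.14 ± 0.18).

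Matrix genes were lower in 8 of 31 tested members and higher in 2, the latter Fn1 and Col15a1. Fibronectin, Fn1, which hepatocytes also secrete into plasma, ranged from 124806 to 200758 at 24 h and from 36708 to 115674 at 7 days, without overlap (0.94 ± 0.16, adjusted p = 0.000106). Of 13 fibroblast and myofibroblast markers 3 were lower and 1 higher. The contractile genes Acta2 and Tagln were lower (-2.28 ± 0.56 and -1.34 ± 0.32), and the ligand Gas6 was the higher member (1.61 ± 0.17), with 5313 to 9587 at 24 h and 1401 to 3719 at 7 days. Col1a1, fibrillar collagen, was not called (-0.32 ± 0.44, adjusted p = 0.631). Without the libraries numbered below 7000 2 matrix genes were lower and 1 higher, no fibroblast marker was lower, and Acta2 (adjusted p = 0.0896) and Tagln (adjusted p = 0.0817) were not called. Of 23 proteases and inhibitors of the ADAMTS, MMP and TIMP families 4 were higher and 3 lower, shares near the 15.6% and 14.9% of all tested genes. The lower count was 1 to 4 when 1 library was left out and 0 without the libraries numbered below 7000. Timp1, a tissue inhibitor of metalloproteinases, ranged from 19.6 to 886 at 24 h and from 2.9 to 166 at 7 days (2.05 ± 0.68, adjusted p = 0.0248). Adamts15 and Mmp14 were also higher (0.88 and 0.53).

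Of 10 hepatocyte markers 3 were higher and 3 lower. None of 14 mitochondrially encoded transcripts was called. With quantile normalization mt-Nd1 (-0.67, adjusted p = 0.000187) and mt-Co1 (-0.68, adjusted p = 0.000502) were called lower. Of 30 nuclear-encoded respiratory chain genes 12 were lower and none higher, with a median of -0.23. Within wild type 0 of these 30 were lower, beside 5.9% of all tested genes, and within knockout 16, beside 11.5%. No member was called for the interaction of genotype and time. Over both genotypes 11 to 17 were lower when 1 library was left out, and the median was -0.24 without the libraries numbered below 7000. Of 26 ribosomal protein genes 2 were higher, and 13 were without knockout replicate 1 of 7 days. Of 25 proteasome genes 2 were higher, 7 were without that liver, and 0 were without the libraries numbered below 7000. Of 18 markers of sinusoidal endothelium 3 were higher, a share near the 15.6% of all tested genes, with Lyve1 at 0.92 ± 0.21. That count was 1 to 4 when 1 library was left out and 1 without the libraries numbered below 7000. None of the 8 cholangiocyte, 9 mesothelium or 8 erythroid and platelet markers was called. Among stellate cell markers 2 of 15 were higher, the growth factor Hgf (0.63 ± 0.16) and Hand2, and 5 were lower. The count of lower stellate markers was 2 to 6 when 1 library was left out and 1 without the libraries numbered below 7000. Of 2 measured pancreatic markers Cela1 was lower (-1.04 ± 0.31, adjusted p = 0.014), with 2641 in knockout replicate 2 of 7 days. Of 4 adipocyte markers Car3 was lower (-1.94 ± 0.32), a gene that hepatocytes also express.

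Some of the largest differences belonged to none of the lists. Igdcc4, an immunoglobulin-domain receptor, ranged from 45.6 to 957 at 24 h and from 0 to 16.9 at 7 days, without overlap (4.78 ± 0.51, adjusted p = 5.5e-07). Prtn3, proteinase 3, known as a neutrophil protease, ranged from 587 to 2399 and from 2.9 to 264, without overlap (4.09 ± 0.60, adjusted p = 2.75e-05). Prtn3 is not a member of the neutrophil list. Chrna4, a nicotinic acetylcholine receptor subunit, had 19.9, 5.9, 3.3, 24.8 and 13.0 in wild type and 19.8, 3.2, 3.8, 13.9 and 16.3 in knockout at 24 h. At 7 days Chrna4 had 84.5, 850, 797, 223 and 862 in wild type and 535, 233, 647, 250 and 1005 in knockout. All livers of 7 days were above all livers of 24 h, and the difference of -5.31 ± 0.46 (adjusted p = 3.63e-08) was the largest among the lower genes that met the naming rule. The lectin-like Clec2h ranged from 1.6 to 41.9 and from 99.6 to 763 (-4.33 ± 0.49), and Prom1, the membrane protein prominin 1, from 14.3 to 90.1 and from 161 to 1084 (-3.53 ± 0.38). Mup-ps16, a major urinary protein pseudogene with many close copies, overlapped between the times (-3.15 ± 0.68, adjusted p = 0.0013). Selenbp2 (-2.98 ± 1.09, adjusted p = 0.0419) was at 1.1 and 0 in wild-type replicates 1 and 2 of 24 h and at 314 to 1085 in the other 8 livers of 24 h. Without the libraries numbered below 7000 its difference was -0.74 (adjusted p = 0.244).

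The deposited oil-injected livers of 4 h and 12 h place these levels in time, as a description with no test. At 4 h Saa1 was at 44131 to 160728 in wild type and at 76496 to 199301 in knockout, between the levels of 7 days and of 24 h. At 12 h it was at 4459 to 584781 in wild type and at 1841 to 636542 in knockout, so that 1 library of each genotype lay near the values of 7 days. The knockout range of 12 h includes replicate 1, which was unlike the rest of its group. The transporter transcript Abcc4 was at 5516.7 in that liver, against 76.9 to 148.5 in the others of the group. Its 10 most abundant genes took 15.1% of counts, the lowest share among the 80 libraries. The cause was not tested. Scd1 was at 91505 to 271129 in wild type and at 227034 to 294177 in knockout at 4 h, which overlaps its values at 7 days. Cdc20 was at 12.6 to 85.3 and at 12.0 to 54.7 at 4 h. Per1 was at 387 to 1612 and at 642 to 1665 at 4 h, which overlaps its values at 24 h.

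The genotypes were then taken apart. Adamts12 was a rare transcript, with 18.8, 24.3, 9.8, 12.8 and 18.8 normalized counts in wild type and 5.5, 1.6, 10.3, 1.3 and 9.0 in knockout at 24 h. At 7 days it had 21.7, 35.3, 14.2, 12.2 and 8.5 in wild type and 4.3, 9.4, 3.3, 5.9 and 6.6 in knockout. The genotypes overlapped at both times, the difference of knockout minus wild type was -1.54 ± 0.32, and over all tested genes it did not pass the threshold in these 20 livers (adjusted p = 0.0648). With a spread estimated over all 80 libraries it did (adjusted p = 0.0157). With a library number below 7000 as covariate the difference was -1.16 (adjusted p = 0.356), and without the libraries numbered below 7000 it was -1.21. The level of Adamts12 did not differ detectably between the times (-0.16 ± 0.32, adjusted p = 0.74). Of all genes, 7 (0.0493%) differed between the genotypes over both times, 5 higher (0.0352%) and 2 lower (0.0141%) in knockout.

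Within wild type 1620 genes (11.4%) differed between the times, 783 higher (5.52%) and 837 lower (5.9%). Within knockout 3580 (25.2%) did, 1954 higher (13.8%) and 1626 lower (11.5%). Of the 1156 genes called in both genotypes 1153 had the same sign, 583 higher and 570 lower. A count of calls in each genotype does not compare the genotypes, and the wild-type count fell to 402 without the libraries numbered below 7000, where wild-type replicate 5 stands alone for 24 h and the spread comes from the other groups. Acute phase genes were higher in 22 of 30 cases within wild type and in 23 within knockout, lipogenic genes lower in 14 and 16 of 24, and mitotic genes lower in 23 and 18 of 24. Saa1 differed by 7.90 in wild type and 7.14 in knockout, with no call for the interaction (adjusted p = 0.709). None of the members of any list was called for the interaction of genotype and time.

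**Figure D5:**
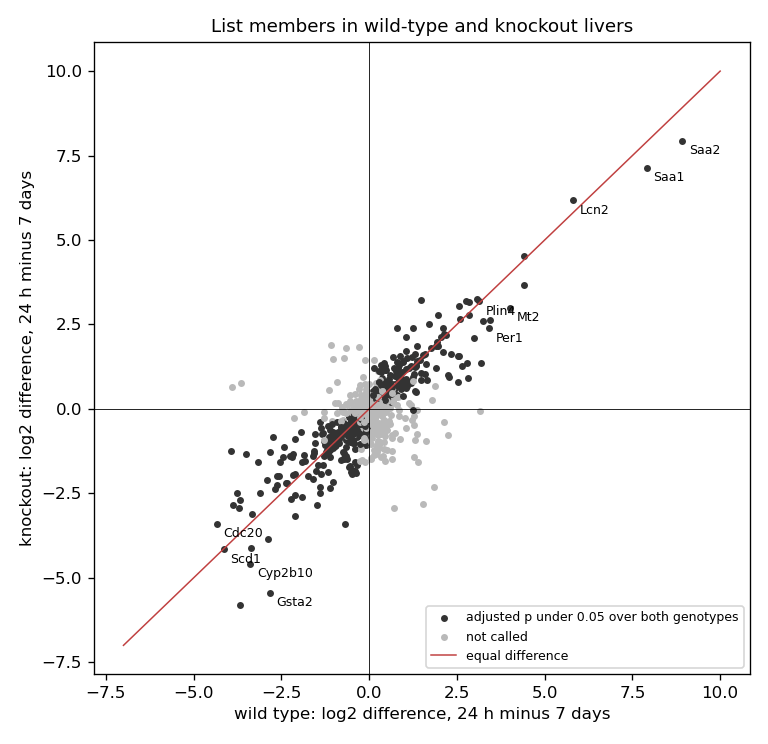
Difference between 24 h and 7 days within wild type (x axis) and within knockout (y axis), both log2, for the 901 tested members of the lists and marker sets, 1 point per gene, with the 421 genes called over both genotypes in dark grey and the red line at equal differences. Saa1, Saa2 and Lcn2 stand at the upper right and Scd1, Cdc20, Cyp2b10 and Gsta2 at the lower left. Of the 421 called genes 420 have the same sign in both genotypes, beside 4313 of all 4325 called genes. A call over both genotypes favours equal signs, so this count does not compare the genotypes.

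The interaction was called for 10 genes (0.0705%), 7 with a positive value of knockout minus wild type (0.0493%) and 3 with a negative one (0.0211%), while 1487 had an unadjusted p under 0.05. Pprc1, a coactivator related to PGC-1alpha, had 396, 375, 336, 339 and 490 at 24 h and 383, 241, 247, 255 and 214 at 7 days in wild type. In knockout Pprc1 had 555, 662, 753, 540 and 990 at 24 h and 135, 179, 251, 152 and 168 at 7 days. The times overlapped in wild type and were apart in knockout. Pprc1 differed by 0.55 in wild type and 1.97 in knockout, and the interaction was 1.43 ± 0.26 (adjusted p = 0.0457). Sh2d4a differed by -0.47 and -1.50 (adjusted p = 0.0457). Ccnj, Sowahb and Zfp574 had interactions of 1.27, 1.26 and 0.80 (adjusted p = 0.0351 each). These calls were not stable. They numbered 0 with quantile normalization, 0 with all 80 libraries in the fit and 0 to 44 when 1 library was left out. Without the libraries numbered below 7000 99 genes were called, 1 of the original 10 among them, in a fit whose wild-type arm of 24 h is replicate 5 alone, the liver with muscle transcripts. The number of the library and the genotype by time groups cannot be fully told apart here, because no knockout library has a low number.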

How the data were processed

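Whole-liver mRNA was measured in 20 oil-injected mouse livers by stranded RNA sequencing, per the labels' protocols. The authors deposited a normalized signal per gene and library, and STAR, HTSeq, DESeq2 and the build GRCm38 are named per the submitters' processing notes, without versions. In any 1 library the values were whole multiples of the same step (tolerance 0.01), as counts divided by a size factor are, and division by that step gave the depths printed. A listed 0 is read against a limit of 3 reads.

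Genes with at least 10 in at least 5 of the 20 livers were tested, 14190 of 14560, so 370 were left out. Values were analysed as log2(value + 1), where the pseudocount understates differences of low genes, with limma 3.58.1 in R 4.3.3 (eBayes with trend). The model had genotype and time, and a fit of the 4 group means gave the values within a genotype and the interaction. Calls are at an adjusted p under 0.05, two-sided. The pipeline was tested on simulated data. No 2 libraries were identical. Groups came from the labels.

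The members, gene lists and tests were chosen with earlier results of these data known. Named genes are the 12 largest differences in each direction among called genes with a symbol, no predicted-gene name, a mean of at least 100 at 1 time and the same sign in both genotypes. To these come up to 4 members of each list with the smallest adjusted p, each called member of lists with 5 or fewer, up to 6 interaction genes and Adamts12. Some genes that the rule names are not reported here. Other genes were named after their values were seen. Alternatives were another pseudocount, filter, normalization, set of libraries, covariate and block, and leaving out each library. The remaining 2 were added after seeing the data, voom on the recovered reads and leaving out 3 livers together. Promoters came from RefSeq GRCm38.p6. Genes were placed with GENCODE M21.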

Additional observations from a re-analysis of the deposited data

Results flagged for a closer look

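Single livers lay apart from the other 4 of their group in 12 of 188 groups of 5 examined on the log2 scale (by the gap to the nearest value over the whole range), and chance alone flags about 1 in 20 groups. Orm2 was 87345 in wild-type replicate 1 of 24 h, against 47248 to 54555 in the other 4. Plin4 was 1015.3 in wild-type replicate 5 of 24 h, against 286.8 to 410.8. Clec2h was 598 in wild-type replicate 2 of 7 days, against 99.6 to 157.4. Scd1 was 6397.7 in knockout replicate 3 of 24 h, against 16610.3 to 24397.5. Selenbp2 was 4693 in wild-type replicate 1 of 7 days, against 1286.1 to 1835.5.

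Sums of cell type markers stood apart in 7 more groups. Knockout replicate 5 of 7 days was low for neutrophil markers, at 127.4 against 502.7 to 846.6, and for dendritic cell and MHC class II markers, at 3979.4 against 8897.8 to 10972.4. Wild-type replicate 5 of 24 h was high for stellate cell markers, at 19719.8 against 11472.1 to 13062.8, low for adipocyte markers, at 6427.6 against 24240.7 to 39215.5, and high for the 1 measured skeletal muscle marker, Mylpf, at 6129.1 against 16.6 to 36.9. Mylpf was also high in knockout replicate 1 of 7 days, at 805.6 against 16.9 to 23.7, and slightly so in knockout replicate 1 of 24 h, at 31.9 against 19.9 to 21.8.

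A difference between the genotypes in the effect of time was called for 10 genes (knockout minus wild type, limma interaction). Of these, 9 are given here. Knockout minus wild type was positive for Zfp574 (0.80), Ccnj (1.27), Sowahb (1.26), Pprc1 (1.43), Slc25a30 (2.12) and Lig4 (1.34). It was negative for Trdmt1 (-1.04), Sh2d4a (-1.03) and Ip6k2 (-1.23). For Slc25a30 the difference between the times was -1.23 in wild type and 0.89 in knockout, and for Ip6k2 0.53 and -0.69. The adjusted p was 0.0351 to 0.0485.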

How the results depend on the processing

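The count of genes that differed between the times was 4325 and lay between 2945 and 4379 in the alternatives that kept or dropped sets of libraries or changed a setting, except the fit with all 80 libraries, which called 2721. Leaving out 1 library gave 3915 to 4430. The wild-type count of 1620 became 613 with all 80 libraries, 688 with the 40 oil-injected libraries and 402 without the libraries numbered below 7000, and 1218 to 1788 when 1 library was left out. The knockout count of 3580 became 1925 and 2265 in the fits with 80 and 40 libraries, and 2837 to 3932 when 1 library was left out. The fits with 80 and 40 libraries include the oil-injected knockout replicate 1 of 12 h, which was unlike its group. Its part in these counts was not tested. The interaction count of 10 became 16 with a mean of at least 100, 3 with 40 libraries, 4 with the number as covariate, 99 without the libraries numbered below 7000, 1 when the 3 livers with transcripts of other tissues were left out, 0 with quantile normalization or all 80 libraries, and 0 to 44 when 1 library was left out. Adamts12 was called with 80 and with 40 libraries (-1.54 in both, adjusted p = 0.0157 and 0.0491), and it lay at -1.66 to -1.39 when 1 library was left out. It was at -0.88 with a pseudocount of 8 and at -1.39 with quantile normalization. With the number as covariate it was at -1.16 (adjusted p = 0.356), and without the libraries numbered below 7000 at -1.21. The cause of these shifts was not tested. With the replicate number as a block the interaction count was 0, and the block changed no other count by over 1.5 times (4157, 1469 and 3414 for both genotypes, wild type and knockout). Sharing a number did not bring livers together (median correlation -0.001 over 30 pairs, beside -0.012), so the numbers were not taken as a pairing.

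Of 206 genes followed, 35 lost a call in at least 1 alternative, in 250 of 6346 values, among them Bmp2, Psmc4, Lyz2, Selenbp2, Cd163, Cd8a, Rps18, Flt4 and Eln. A call was gained in 43 values, among them those of mt-Nd1 and mt-Co1 with quantile normalization. Cyp2e1 was not called with quantile normalization (adjusted p = 0.263), Ciita without the 3 livers (adjusted p = 0.0933), and S100a9 (0.084), Il1r2 (0.125) and Cela1 (0.0712) without the libraries numbered below 7000. In 6 genes the sign changed in some alternative, and none of these was called over both genotypes: mt-Nd5 (-0.22, quantile normalization), Gpm6a (0.02, without libraries numbered below 7000), Slc25a30 (0.40 without those), Adrb3 (0.19 without those, -0.24 to 0.01 when 1 library was left out), Ip6k2 (-0.16 to 0.01 when 1 library was left out) and Mylpf (-0.01 without the 3 livers, -0.50 to 0.90 when 1 library was left out). Depth limits the rarest genes, since 3 reads equal 2.12 to 5.64 normalized counts.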
